A study of Mus musculus with 10 samples.

Results

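Described here are 10 genes of microglia and macrophages, *Apoe* and the 9 macrophage genes *Aif1*, *Cx3cr1*, *Csf1r*, *C1qa*, *C1qb*, *C1qc*, *Tyrobp*, *Trem2* and *P2ry12*, chosen by name from the 54146 genes of the count table. All 10 passed the expression filter that left 19773 genes for testing. RNA of single lumbar spinal cords at E12.5 was sequenced from 5 control (Ctr) and 5 *Dot1l*-cKO (Mut) mouse embryos of 2 litters, and the number of reads per gene was deposited without normalization. The Mut embryos carried Wnt1cre2/+ with Dot1lfl/fl, so that Cre, active mainly in the dorsal neural tube and neural crest, deletes the floxed *Dot1l* alleles, on B6.Cg-E2f1Tg(Wnt1-cre)2Sor/J mice. Litter 1 (embryos such as Mut_181-2) held 3 Mut and 3 Ctr embryos of the genotype +/+ with Dot1lfl/fl, and litter 2 (such as Mut_190-4) held 2 Mut and 2 Ctr embryos of the genotype +/+ with Dot1lfl/+. No control carried Cre, so effects of Cre and of the transgene cannot be told apart from loss of *Dot1l*, and a litter differs from the other in the floxed alleles of its controls as well. Dorsal root ganglia stayed attached, and no cells were sorted. In bulk tissue, fewer cells of a type and less RNA per cell cannot be told apart.

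Microglia are the resident macrophages of the central nervous system. They descend from yolk sac precursors that enter the neural tube early in development, and depend on the receptor CSF1R. They clear dying cells, and they are the main source of the complement protein C1q in neural tissue. *Apoe* encodes apolipoprotein E, a carrier of cholesterol and other lipids. It is made by macrophages, but also by radial glia, astrocytes and glia of the peripheral nervous system. *Apoe* therefore need not follow the macrophage genes, and the question was whether it did so across embryos.

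The members were matched to the mouse build mm10. *Apoe* (ENSMUSG00000002985) lies on chromosome 7 from 19696109 to 19699188, and *Tyrobp* lies on the same chromosome from 30413760 to 30417585. The C1q genes form a cluster on chromosome 4, with *C1qb* from 136880129 to 136886187, *C1qc* from 136889804 to 136893065 and *C1qa* from 136895917 to 136898803. *Csf1r* lies on chromosome 18 from 61100598 to 61132149 and *Cx3cr1* on chromosome 9 from 119901616 to 120069879. *Aif1* and *Trem2* are both on chromosome 17, from 35170991 to 35176068 and from 48346401 to 48354147, and *P2ry12* is on chromosome 3 from 59216272 to 59262871.

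RefSeq promoter windows of GRCm38.p6, from 250 bases before to 50 bases after a start site, were found for 7 of the 10 members, in 9 windows. *Csf1r*, *C1qa* and *Tyrobp* had no entry. PU.1, the product of *Spi1*, is a transcription factor that macrophages and microglia require, and the letters GAGGAA are a core of its sites and of those of other ETS factors. Searched on both strands, GAGGAA stood in 6 of the 9 windows, of 5 members (*Apoe*, *Aif1*, *C1qb*, *C1qc* and *Trem2*), and in 28.3% of all 32851 windows of the same length. The windows of *Cx3cr1* and *P2ry12* did not hold these letters. A match of so short a word is a description and not a site. Shown are 1 of the 3 windows of *Apoe*, the one at the start of the annotated gene, and the windows of the C1q genes with an entry, each in lower case with GAGGAA or its reverse complement in capitals. The other windows of *Apoe*, not shown, held 1 match (chr7:19698349-19698648) and 0 matches (chr7:19698572-19698871).

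Apoe, chr7:19699139-19699438, minus strand: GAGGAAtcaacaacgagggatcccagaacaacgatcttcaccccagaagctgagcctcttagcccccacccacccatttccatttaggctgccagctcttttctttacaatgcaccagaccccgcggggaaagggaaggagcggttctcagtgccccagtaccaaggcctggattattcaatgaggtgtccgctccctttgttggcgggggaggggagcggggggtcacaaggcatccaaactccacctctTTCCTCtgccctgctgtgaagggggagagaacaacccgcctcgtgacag

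C1qb, chr4:136886151-136886450, minus strand: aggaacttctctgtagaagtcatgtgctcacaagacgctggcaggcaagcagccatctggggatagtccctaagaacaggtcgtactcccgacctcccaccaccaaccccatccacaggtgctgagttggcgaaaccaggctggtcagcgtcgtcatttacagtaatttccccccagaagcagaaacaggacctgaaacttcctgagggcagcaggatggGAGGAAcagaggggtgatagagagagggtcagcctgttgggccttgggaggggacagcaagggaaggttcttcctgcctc

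C1qc, chr4:136892865-136893164, minus strand: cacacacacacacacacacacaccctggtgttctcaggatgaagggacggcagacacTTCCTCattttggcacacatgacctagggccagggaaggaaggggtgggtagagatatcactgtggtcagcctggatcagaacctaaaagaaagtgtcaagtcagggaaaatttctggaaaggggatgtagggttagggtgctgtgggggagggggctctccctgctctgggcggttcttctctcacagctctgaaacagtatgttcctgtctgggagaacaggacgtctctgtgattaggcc

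In the *Apoe* window the word begins at base 1 of 300 on the printed strand and at base 252 on the other, just past the start site. In *C1qb* it begins at base 221, and in *C1qc* at base 58 on the other strand. The longer word GAGGAAGT was in 3.2% of all windows.

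*Apoe* was by far the most abundant of the 10 genes when levels were set per length. CPM values are read counts set relative to the effective size of each library, as TMM estimates it, and per length they are divided by the kilobases of exon in the annotation. *Apoe* averaged 34.8 CPM per kilobase and lay above every other member in all 10 embryos (19.99 to 51.1). *C1qb* (10.5 CPM per kilobase) and *C1qa* (8.31) followed, then *Tyrobp* (5.36), *Csf1r* (4.65), *C1qc* (4.37), *Cx3cr1* (2.94), *P2ry12* (1.46), *Aif1* (1.02) and *Trem2* (0.577). The ranges of neighbours in this order overlapped between embryos except for *Apoe* and *C1qb*, *C1qa* and *Tyrobp*, and *Cx3cr1* and *P2ry12*. *Tyrobp* and *Csf1r*, and *Csf1r* and *C1qc*, changed places in some embryos, the first standing above the second in 8 and in 7 of the 10. Exons of all transcripts of a gene were joined for its length, which lowers the per-length level of a gene such as *Trem2* with long alternative transcripts.

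Total counts lay between 40949585 and 68928443 per embryo. Each member had at least 52 counts in every embryo. In the Mut embryos of litter 2 *Xist* stood at 6.00 and 6.79 CPM, and in the other 8 embryos between 499 and 890, so that sex and genotype cannot be told apart in litter 2. *Dot1l* counted over the whole gene was not lower in Mut embryos (106 ± 6.18 CPM) than in controls (94.0 ± 7.85 CPM; SD, n = 5 each), which does not check the deletion of single exons. Each embryo was its own RNA extraction and library, and nothing in the labels sets the litters apart as batches of extraction or sequencing.

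**Figure D1:**
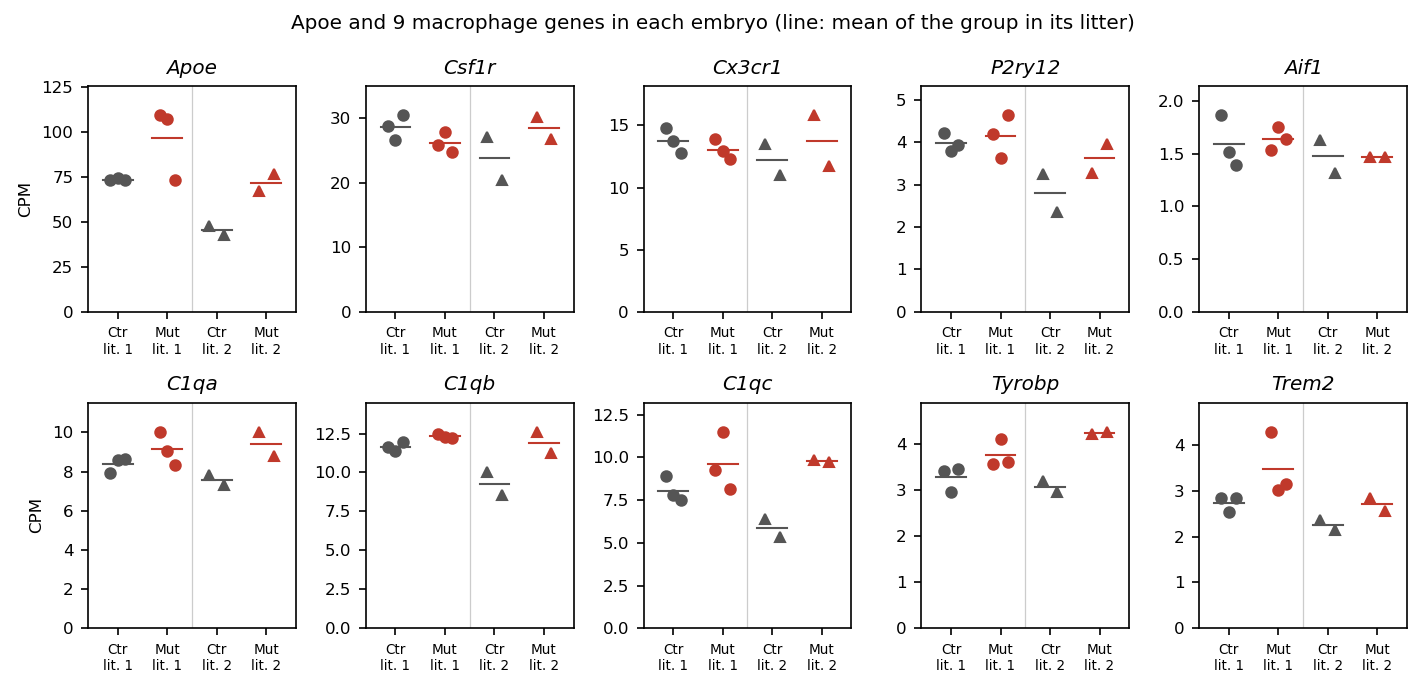
CPM (vertical axis, from 0) of *Apoe* and of the 9 macrophage genes in each embryo (points), by genotype and litter (circles litter 1, triangles litter 2, grey Ctr, red Mut), with the group mean in its litter as a line. *Apoe* is higher in both Mut embryos of litter 2 and in 2 of the 3 of litter 1, *Tyrobp* in all 5 Mut embryos, and *Csf1r*, *Cx3cr1* and *Aif1* overlap between the genotypes in litter 1.

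*Apoe* rose in the *Dot1l*-cKO spinal cord by 0.50 on the log2 scale (standard error 0.10), or 1.41-fold with a 95% interval of 1.22 to 1.63, and was the only one of the 10 genes to pass the test (adjusted p = 0.0263 by the quasi-likelihood test of edgeR, with litter as covariate and Benjamini-Hochberg adjustment over all tested genes). The same test called 1.90% of all genes higher and 1.09% lower, and *Apoe* stood at position 122 by p. None of the 10 was lower. Before normalization, *Apoe* had 1689 to 6560 counts per embryo.

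*Apoe* in control embryos stood at 73.1, 74.4 and 73.1 CPM in litter 1 and at 47.8 and 42.7 CPM in litter 2. The Mut embryos of litter 1 had 109, 107 and 73.1 CPM, and those of litter 2 had 67.0 and 76.4 CPM. The groups therefore separated in litter 2 but not in litter 1, where embryo Mut_181-7 lay among its controls and the other 2 Mut embryos lay clearly above them. In litter 2 alone *Apoe* rose by 0.67 (adjusted p = 0.00127, edgeR, 2 against 2 embryos; 3.98% of genes were called higher and 1.16% lower). Litter 1 alone gave a log2 fold change of 0.40 (adjusted p = 0.211, edgeR, 3 against 3; 0.00519% called higher and 0.0571% lower). The fold changes of the litters were not shown to differ (difference 0.27, adjusted p = 0.721, edgeR interaction term, which called 0.00978% of genes).

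The call depended on single embryos while the size did not. Without Mut_181-7 the log2 fold change of *Apoe* was 0.60 (adjusted p = 8.9e-05, edgeR). Leaving out any other single embryo gave between 0.45 and 0.52, and 6 of these 9 fits no longer passed. The adjusted p (edgeR) was 0.0662 without Ctr_181-4, 0.0528 without Ctr_181-9, 0.0688 without Mut_181-2, 0.0643 without Ctr_190-5, 0.0665 without Ctr_190-7 and 0.0878 without Mut_190-6. With *Xist* as a further covariate the log2 fold change was 0.37 and did not pass (adjusted p = 0.216, edgeR). Only the Mut embryos of litter 2 had low *Xist*, so this fit rests mostly on litter 1 (0.40 alone). It cannot set sex apart from genotype. Over all alternatives the adjusted p of *Apoe* ranged from 6.6e-17 to 0.454.

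The litters differed in *Apoe* as much as the genotypes did. *Apoe* fell by 0.56 on the log2 scale from litter 1 to litter 2 (standard error 0.10, adjusted p = 6.9e-04, edgeR), which among the 10 genes passed the test for *Apoe* only, in a comparison that called 17.8% of all genes lower and 16.9% higher in litter 2. In controls alone the log2 fold change was -0.69 (adjusted p = 4.7e-05, edgeR), and in Mut embryos alone it was -0.43 (adjusted p = 0.0989). *C1qc* also passed in controls alone (-0.45, adjusted p = 0.0401, edgeR), and was at 0.02 in Mut embryos alone (adjusted p = 0.936). Mut embryos of litter 2 were thus at about the *Apoe* level of the litter 1 controls. For the other 9 genes the log2 fold change between the litters ranged from -0.35 (*P2ry12*, adjusted p = 0.0526) to 0.05 (*Tyrobp*, adjusted p = 0.779).

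The subunits of C1q, the initiator of the classical complement pathway, had positive log2 fold changes in Mut embryos that did not pass the test over both litters. *C1qc* came closest. In controls it stood at 8.88, 7.78 and 7.49 CPM in litter 1 and at 6.41 and 5.36 CPM in litter 2. The Mut embryos had 9.24, 11.5 and 8.17 CPM in litter 1 and 9.85 and 9.70 CPM in litter 2. Litter 2 was separated, and in litter 1 Mut_181-7 again lay among the controls. The log2 fold change of *C1qc* was 0.44 (standard error 0.12, adjusted p = 0.0575, edgeR). It passed in litter 2 alone (0.73, adjusted p = 0.0117, edgeR) and without Mut_181-7 (0.52, adjusted p = 0.0138, edgeR). It also passed over both litters with DESeq2 (adjusted p = 0.00952), where the default DESeq2 filter on mean count replaced the expression filter. Its adjusted p over all alternatives ranged from 6.9e-04 to 0.497.

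*C1qa* was at 7.92, 8.58, 8.64, 7.83 and 7.34 CPM in the controls and at 10.0, 9.04, 8.33, 10.0 and 8.77 CPM in the Mut embryos, in the order of the litters. Only Mut_181-7 lay within the range of the controls. *C1qb* was at 11.6, 11.4, 12.0, 10.0 and 8.53 CPM in controls and at 12.501, 12.3, 12.2, 12.6 and 11.2 CPM in Mut embryos. Its groups did not overlap within either litter, although the margin in litter 1 was small beside the differences between litters. Their log2 fold changes were 0.20 for *C1qa* (adjusted p = 0.192) and 0.19 for *C1qb* (adjusted p = 0.181, edgeR). The 3 subunits are built into one protein in equal parts, yet their transcripts did not keep one ratio. *C1qc* over *C1qb* lay between 0.626 and 0.764 in controls and between 0.669 and 0.936 in Mut embryos.

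*Tyrobp* encodes the adaptor DAP12, through which TREM2, a receptor for lipids including ApoE particles, signals. *Tyrobp* stood at 3.41, 2.96, 3.45, 3.19 and 2.96 CPM in controls and at 3.56, 4.12, 3.61, 4.22 and 4.26 CPM in Mut embryos, in the order of the litters. It was the only member in which all 5 Mut embryos lay above all 5 controls, as did 1.01% of all tested genes. *Trem2* stood at 2.84, 2.52, 2.83, 2.37 and 2.15 CPM in controls and at 4.28, 3.01, 3.14, 2.84 and 2.56 CPM in Mut embryos. The Mut embryos were above the controls within each litter, with Mut_181-2 well above the rest. The log2 fold changes were 0.30 for *Tyrobp* (standard error 0.11, adjusted p = 0.123) and 0.31 for *Trem2* (standard error 0.13, adjusted p = 0.170), and neither passed the test. Within each litter, without overlap, Mut embryos were higher in 3 of the 10 members (*C1qb*, *Tyrobp* and *Trem2*) and in 3.80% of all tested genes.

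The surface receptors used to identify microglia and the cytoplasmic marker *Aif1* moved least. *Csf1r*, the receptor for the growth factors CSF1 and IL34, was at 28.7, 26.6, 30.4, 27.0 and 20.4 CPM in controls and at 25.9, 27.8, 24.7, 30.2 and 26.7 CPM in Mut embryos. *Cx3cr1*, the fractalkine receptor, ranged from 11.0 to 14.8 CPM in controls and from 11.7 to 15.8 CPM in Mut embryos. *Aif1*, which encodes the actin-binding protein IBA1 and is the usual histological marker of microglia, ranged from 1.32 to 1.86 CPM and from 1.46 to 1.75 CPM. The genotypes overlapped within each litter in all 3 genes. *P2ry12*, a receptor for nucleotides released by damaged cells, ranged from 2.35 to 4.23 CPM in controls and from 3.28 to 4.64 CPM in Mut embryos.

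The 95% intervals give the range of change for these genes. The log2 fold change of *Csf1r* was 0.02 with an interval from -0.17 to 0.22, that of *Cx3cr1* was 0.02 from -0.19 to 0.23, and that of *Aif1* was 0.02 from -0.28 to 0.32. For *P2ry12* it was 0.18 from -0.09 to 0.45. The point estimate of *Apoe* lay above each of these upper bounds. Its own interval, 0.29 to 0.71, overlapped those of *Aif1* and *P2ry12* and lay above those of *Csf1r* and *Cx3cr1*. The differences between genes were not tested. *Csf1r* shares 873 of its 5774 exon bases with *Hmgxb3* on the opposite strand, and whether the counting used strand is not known. *Hmgxb3* did not pass the test either (log2 fold change 0.01, adjusted p = 0.902). *Cx3cr1* and *P2ry12* share 78 and 9 exon bases with another gene.

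Over the 10 members the median log2 fold change was 0.19, against -0.01 over all tested genes. All 10 were positive, as were 48.0% of all tested genes, and 6 of the 10 had an unadjusted p under 0.05, as did 21.7% of all tested genes. The median was 0.11 in litter 1 and 0.34 in litter 2.

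**Figure D2:**
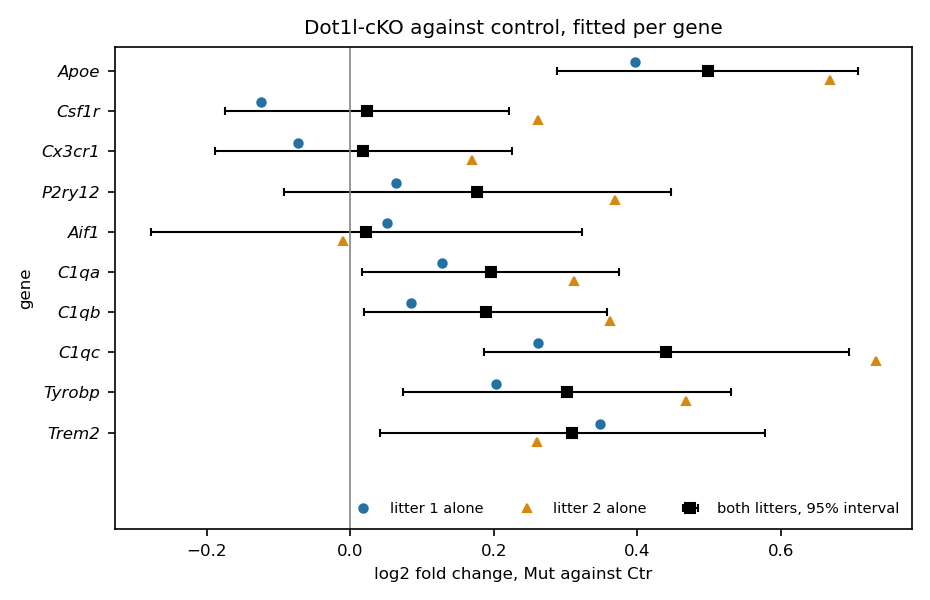
Log2 fold change of Mut against Ctr (horizontal axis) of each of the 10 genes (vertical axis), fitted over both litters (squares, bars are 95% intervals), in litter 1 alone (circles) and in litter 2 alone (triangles). *Apoe* and *C1qc* are farthest to the right over both litters (0.50 and 0.44), *Csf1r*, *Cx3cr1* and *Aif1* sit at 0.02, and litter 2 lies to the right of litter 1 in 8 of the 10 genes.

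Apart from *Aif1* and *Trem2*, each member had a larger log2 fold change in litter 2 than in litter 1. None of these differences passed the interaction test (adjusted p from 0.580 for *Csf1r* to 0.963 for *Aif1*, edgeR).

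Across embryos *Apoe* was most alike to *C1qc* among the 9 macrophage genes and least alike to *Aif1*. Log2 CPM values were centred on the mean of their litter, since the litters differed in *Apoe*, and Pearson's r was taken over the 10 embryos. It was 0.89 for *C1qc*, 0.83 for *Tyrobp*, 0.83 for *C1qa*, 0.73 for *C1qb* and 0.70 for *Trem2*. It was lower for *P2ry12* (0.44), *Csf1r* (0.37), *Cx3cr1* (0.22) and *Aif1* (0.13). The C1q subunits, *Tyrobp* and *Trem2* thus had higher values than the other receptors and *Aif1*, a grouping seen in these values and not kept when they were also centred on the genotype.

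No correlation passed the adjustment over all genes. The exact two-sided permutation p over the 17280 rearrangements of embryos within litters was 0.00492 for *C1qc*, which adjusted over 19772 genes gave 0.105. For the other 8 genes the adjusted p lay between 0.131 (*C1qa*) and 0.872 (*Aif1*). Of all genes 0 passed, or 0%, and 4190 (21.2%) had an unadjusted p under 0.05. The smallest p that the rearrangements allow is 5.8e-05. A gene alone at this p would not pass after adjustment over 19772 genes, so the adjusted values cannot show that the members fail to follow *Apoe*. Spearman's rho was 0.87 for *C1qc* (exact permutation p = 0.0138), 0.79 for *C1qa* (exact permutation p = 0.0420), 0.77 for *C1qb* (exact permutation p = 0.0688), 0.75 for *Tyrobp* (exact permutation p = 0.0681) and 0.65 for *Trem2* (exact permutation p = 0.0604), with adjusted p of 0.193 or more.

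Without the 2 embryos farthest from the median of the macrophage gene, r was 0.84 for *C1qc*, 0.79 for *Tyrobp*, 0.86 for *C1qa*, 0.82 for *C1qb* and 0.58 for *Trem2*. The values of *Csf1r*, *Cx3cr1* and *P2ry12* turned negative (-0.14, -0.32 and -0.28), so that their weak positive r rested on those embryos. *Aif1* gave 0.21. Within litter 1, over 6 embryos, r was 0.85 for *C1qa*, 0.80 for *C1qc*, 0.70 for *C1qb*, 0.69 for *Trem2* and 0.62 for *Tyrobp*. There *P2ry12* and *Csf1r* were negative (-0.34 and -0.19), and *Cx3cr1* (0.04) and *Aif1* (0.12) were near 0. Litter 2 held 4 embryos, too few for a value.

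The likeness was weaker among embryos of the same genotype. When values were centred on litter and genotype together, which leaves the differences among embryos of the same kind, r fell to 0.65 for *C1qc*, 0.50 for *C1qa*, 0.34 for *Trem2*, 0.29 for *Tyrobp* and 0.10 for *C1qb*. *Csf1r* gave 0.32, *Cx3cr1* 0.15, *Aif1* 0.11 and *P2ry12* -0.13. The median over the 9 genes fell from 0.70 to 0.29. The corresponding medians over all tested genes were -0.04 and -0.02. For the mean log2 CPM of the 9 genes as a score, r with *Apoe* was 0.81 centred on the litter and 0.40 centred on litter and genotype.

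**Figure D3:**
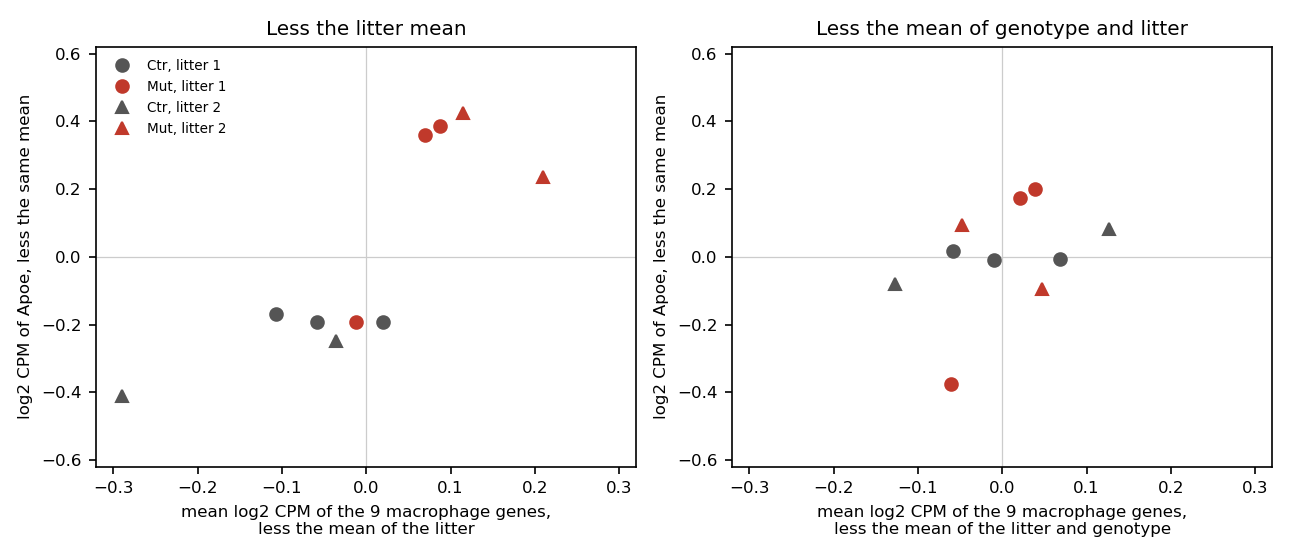
Log2 CPM of *Apoe* (vertical axis) against the mean log2 CPM of the 9 macrophage genes (horizontal axis) in the 10 embryos, each less the litter mean (left) or the mean of litter and genotype (right), with circles for litter 1, triangles for litter 2, grey for Ctr and red for Mut. On the left (r = 0.81) 4 Mut embryos lie at the upper right and 1, Mut_181-7, lies with the controls, and on the right (r = 0.40) the spread of the macrophage mean is small and Mut_181-7 lies lowest.

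In Mut_181-7 the members parted. *Apoe* (73.1 CPM), *C1qa* (8.33 CPM), *C1qc* (8.17 CPM) and *Aif1* (1.64 CPM) lay within the range of the controls of its litter, whereas *C1qb* (12.2 CPM), *Tyrobp* (3.61 CPM), *Trem2* (3.14 CPM) and *P2ry12* (4.64 CPM) were above all 3 of these controls. *Csf1r* (24.7 CPM) and *Cx3cr1* (12.3 CPM) were below them.

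The log2 fold change of *Apoe* was larger than that of each of the 9 macrophage genes, a difference that was not tested. Within litters, its mean log2 CPM was 0.486 higher in Mut than in Ctr embryos, and the mean over the 9 macrophage genes was 0.188 higher. *Apoe* divided by the summed CPM of the 9 genes stood at 0.868, 0.943 and 0.882 in the litter 1 controls and at 1.28, 1.25 and 0.928 in the litter 1 Mut embryos. In litter 2 it was 0.636 and 0.696 in controls and 0.743 and 0.951 in Mut embryos. The ratio was higher in 4 of 5 Mut embryos than in every control of their litter, and on the log2 scale the mean difference within litters was 0.343. This score over the members is given as a description, with no test. *Csf1r* and *Cx3cr1* make up much of the summed CPM, and each had a log2 fold change of only 0.02. Divided by the summed CPM of the C1q genes instead, *Apoe* ranged from 1.97 to 2.68 in controls and from 2.06 to 3.44 in Mut embryos.

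**Figure D4:**
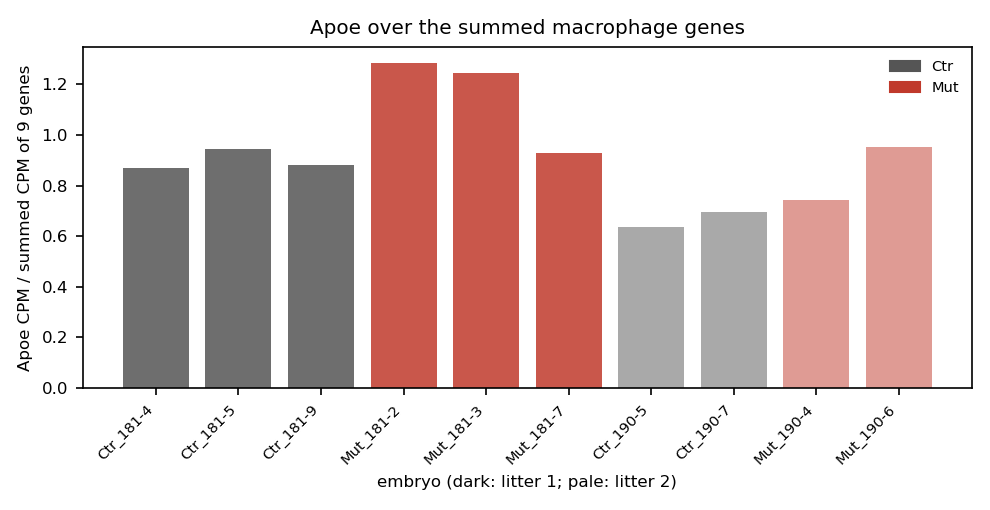
*Apoe* CPM divided by the summed CPM of the 9 macrophage genes (vertical axis, from 0) in each embryo (bars, grey Ctr, red Mut, dark for litter 1 and pale for litter 2). The bars of Mut_181-2 and Mut_181-3 (1.28 and 1.25) are the tallest, Mut_181-7 (0.928) stands among its controls, and the controls of litter 2 (0.636 and 0.696) are the lowest.

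When the mean log2 CPM of the 9 macrophage genes was added to the model as a covariate, the log2 fold change of *Apoe* was 0.31 (standard error 0.13, adjusted p = 0.343, edgeR, 86 of 20446 genes called). With the mean of a list of 25 pan-myeloid genes, an alternative chosen after the data were seen, it was 0.32 (adjusted p = 0.273, 184 genes called). The direction was kept and the test was not passed in either fit. The mean of the 9 genes was itself 0.188 higher in Mut embryos within litters, a difference that was not tested, with Mut_181-7 below Ctr_181-4. Lists of other cells gave values on both sides of these. With the mean of 13 genes of neural crest glia it was 0.28 (adjusted p = 0.168, 235 genes called), with that of 12 red blood cell genes 0.43 (adjusted p = 0.101, 67 genes called) and with that of 12 genes of meninges and mesenchyme 0.54 (adjusted p = 0.00408, 1287 genes called).

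By r, *C1qc* stood at position 270 of the 19772 genes compared with *Apoe*, *Tyrobp* at 702, *C1qa* at 713, *C1qb* at 1561 and *Trem2* at 1834. *P2ry12* (4428), *Csf1r* (5247), *Cx3cr1* (6923) and *Aif1* (7916) came much later. An r of at least 0.5 was reached by 5 of the 9 macrophage genes (55.6%) and by 19.4% of all genes.

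The genes most like *Apoe* across embryos were on none of the macrophage lists. Among genes with a mean log2 CPM of at least 1, they were *Nucb1* (r = 0.98), which encodes a calcium-binding protein of the Golgi, *Vgf* (0.98), which encodes a neuropeptide precursor of neurons and endocrine cells, *Abcb9* (0.97), a lysosomal peptide transporter, *Crhr1* (0.97), the receptor for corticotropin-releasing hormone, and *B3gat2* (0.97), a glucuronyltransferase. Their adjusted p by exact permutation was between 0.102 and 0.105. None of the 5 was on any of the 16 lists of cell types and pathways. *Nucb1* stood at 88.1, 88.3 and 89.6 CPM in the litter 1 controls and at 102, 100 and 90.0 CPM in the litter 1 Mut embryos. In litter 2 it was at 82.5 and 77.3 CPM in controls and at 97.5 and 98.3 CPM in Mut embryos. All 5 Mut embryos lay above all 5 controls, unlike for *Apoe*, with Mut_181-7 the lowest of them and next to its controls. These genes were taken from 19772 for their high r in these same embryos, so their values describe the choice and are not set against those of the members.

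Microglia signature genes other than the members were spread to both sides. Of 16 tested, 0 passed the test in either direction (edgeR) and 4 had an unadjusted p under 0.05, 9 log2 fold changes were positive and 7 negative, and their median was 0.01. The lowest p belonged to *Sall1*, a transcription factor of microglia that neural progenitors express too (145 CPM in controls and 128 CPM in Mut embryos, log2 fold change -0.17, adjusted p = 0.0576). Their median r with *Apoe* was 0.26. All 16 were detected, although abundant ones such as *Sparc* and *Sall1* are not particular to microglia. *Tmem119*, a surface protein of microglia, was at 13.6 CPM in controls and 13.2 CPM in Mut embryos. For comparison with this list and those below, 21.7% of all tested genes had an unadjusted p under 0.05. The test called 1.90% of them higher and 1.09% lower (edgeR).

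Among genes of border-associated and tissue macrophages, 0 of 13 tested passed (edgeR, 1 at an unadjusted p under 0.05), with a median of -0.09 (by litter, -0.20 and 0.21). Lowest in p was *Maf*, a transcription factor (log2 fold change 0.11, adjusted p = 0.210). Their median r with *Apoe* was 0.00. *Cbr2* and *Cd209f* had no more than 11 counts in any embryo and were not tested. The summed level of the list overlapped in litter 1 (177 to 209 CPM in controls and 167 to 179 CPM in Mut embryos) and was higher in the Mut embryos of litter 2 (124 to 149 CPM and 153 to 161 CPM).

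The pan-myeloid genes had a median log2 fold change close to that of the members. Of 25 tested, 20 log2 fold changes were positive, the median was 0.18, and the median r with *Apoe* was 0.42. Only *Csf2ra* passed, the alpha chain of the GM-CSF receptor (log2 fold change 0.65, adjusted p = 0.0318, edgeR). It stood at 15.2, 17.6, 16.9, 10.5 and 10.4 CPM in the controls and at 23.1, 33.4, 17.0, 17.0 and 18.7 CPM in the Mut embryos, in the order of the litters, with Mut_181-7 again among its controls. *Spi1*, which encodes PU.1, averaged 1.80 CPM in controls and 2.23 CPM in Mut embryos (log2 fold change 0.30, adjusted p = 0.264).

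*Cx3cl1*, the ligand of CX3CR1 made by neurons, rose by 0.30 in Mut embryos (adjusted p = 0.0339, edgeR). It was the only one of 13 ligands, receptors and signalling partners of microglia to pass, and their median was 0.01. The ligands of CSF1R did not pass, *Csf1* with a log2 fold change of 0.01 (adjusted p = 0.925) and *Il34* with -0.13 (adjusted p = 0.830).

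Other complement genes had no call. Of 13 tested, 0 passed (edgeR, 3 at an unadjusted p under 0.05), 8 were negative, the median was -0.08, and the median r with *Apoe* was -0.10. The lowest p was that of *Cd55*, an inhibitor of complement on cell surfaces (log2 fold change 0.35, adjusted p = 0.0623). *C3* was at 1.19 CPM in controls and 1.69 CPM in Mut embryos (log2 fold change 0.52, adjusted p = 0.178). *C4b* had no more than 3 counts in any embryo.

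Genes that microglia raise together with *Apoe* and *Trem2* in disease, and lysosomal and lipid genes, had a median of -0.01. Of 17 tested, 0 passed (edgeR, also 0 at an unadjusted p under 0.05). *Lgals3*, which encodes galectin 3, had the lowest p (log2 fold change 0.86, adjusted p = 0.254) at a mean of 0.213 CPM in controls. *Lpl*, which encodes lipoprotein lipase, was at 19.96 CPM in controls and 19.6 CPM in Mut embryos, and *Axl*, a receptor for dying cells, at 49.0 and 48.1 CPM.

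Lipid genes that work with ApoE were also without a call. Of 22 tested, 0 passed (edgeR), although 11 had an unadjusted p under 0.05 in both directions, as did 21.7% of all tested genes. There were 8 positive and 14 negative log2 fold changes, with a median of -0.01. The receptors *Lrp1* (-0.24, adjusted p = 0.209) and *Vldlr* (-0.13, adjusted p = 0.206) had negative log2 fold changes. The cholesterol exporters *Abca1* (-0.21, adjusted p = 0.258) and *Abcg1* (0.16, adjusted p = 0.144), which load lipid onto ApoE, differed in sign.

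*Apoc1*, the apolipoprotein gene next to *Apoe*, had the largest log2 fold change of the tested neighbours. On chromosome 7 from 19689481 to 19692660, it had between 11 and 86 counts per embryo. It stood at 0.650, 0.298, 0.605, 0.617 and 0.278 CPM in the controls and at 0.949, 1.06, 1.23, 0.830 and 0.849 CPM in the Mut embryos, in the order of the litters. All 5 Mut embryos lay above all 5 controls, and Mut_181-7 was here the highest. The log2 fold change of *Apoc1* was 0.97 (standard error 0.25, adjusted p = 0.0506, edgeR), just short of the threshold. Its r with *Apoe* was 0.64 centred on the litter and -0.07 centred on litter and genotype. The other tested genes within 50 kb did not pass, *Clptm1* with 0.18 (adjusted p = 0.123), *Nectin2* with 0.10 (adjusted p = 0.398) and *Tomm40* with -0.04 (adjusted p = 0.713). *Apoc2*, *Apoc4*, *Gm44805* and *Gm20512* had no more than 12 counts in any embryo and were not tested.

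A few markers of other cells passed the test between the genotypes. Of 13 genes of neural crest glia, which include satellite glia and Schwann cell precursors of the ganglia and can express *Apoe*, 3 rose in Mut embryos (1.90% of all tested genes were called higher). Among these were *Cnp*, an enzyme of myelinating glia (0.34, adjusted p = 0.0368, edgeR), and *S100b*, a calcium-binding protein of glia (0.92, adjusted p = 0.0467, edgeR). The other 10 did not pass, and of all 13 log2 fold changes 8 were positive and 5 negative, the lowest that of *Pmp22*, a myelin protein gene (-0.17, adjusted p = 0.263). Over the 13 genes the median log2 fold change was 0.25 (-0.04 in litter 1 and 0.47 in litter 2, where sex and genotype cannot be told apart) and the median r with *Apoe* was 0.60. The summed CPM of the list was lower in the Mut embryos of litter 1 (1174 to 1223, against 1250 to 1271 in controls) and overlapped in litter 2 (1066 to 1077, against 1055 to 1069), and no marker was at 0. Much of this sum was *Fabp7*, which is also on the list of radial glia. The mean log2 CPM of the list went otherwise. In litter 1 it was 4.93, 4.95 and 4.70 in Mut embryos and 4.85, 4.77 and 4.86 in controls. In litter 2 it was 4.54 and 4.47 in Mut embryos and 4.06 and 3.99 in controls. *Sox10*, the transcription factor that defines these cells, was at 40.9 CPM in controls and 47.6 CPM in Mut embryos (0.26, adjusted p = 0.398).

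Of the monocyte and granulocyte genes 9 of 13 were tested, with a median log2 fold change of 0.48 (by litter, 0.17 and 0.41, each litter fitted and filtered alone) and a median r with *Apoe* of 0.58. Apart from *S100a9* and *Prtn3* these genes were near the floor, with a mean log2 CPM from -2.32 (*Cd177*) to -0.07 (*S100a8*). *S100a9*, a calcium-binding protein of neutrophils, rose by 0.81 (adjusted p = 0.0312, edgeR) from 1.03 to 1.79 CPM. *Ly6c2*, *Elane*, *Ctsg* and *Ms4a3* had no more than 8 counts in any embryo. The summed level of the list overlapped in litter 1 (5.28 to 8.05 CPM in controls and 6.97 to 10.2 CPM in Mut embryos) and was higher in the Mut embryos of litter 2 (7.36 to 9.28 CPM and 11.8 to 13.4 CPM). The part of these cells in the rise of *Apoe* was not tested. Among 12 red blood cell genes, *Hbb-bh1*, an embryonic globin, rose by 0.41 (adjusted p = 0.0348, edgeR). Their median was 0.11 (-0.07 in litter 1 and 0.42 in litter 2), and their median r with *Apoe* was 0.35, but -0.19 centred on litter and genotype and -0.14 in litter 1 alone. Their summed CPM overlapped in litter 1 (1082 to 1180 in controls and 1021 to 1123 in Mut embryos) and was higher in the Mut embryos of litter 2 (1541 to 1671 and 1853 to 2271).

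Endothelial genes had a median of -0.17 over 12 genes (-0.39 in litter 1 and 0.11 in litter 2) and a median r with *Apoe* of -0.17, with 0 called (edgeR, 6 at an unadjusted p under 0.05, as were 21.7% of all tested genes) and *Kdr*, a receptor for VEGF, lowest in p (-0.30, adjusted p = 0.106). No pericyte gene of 7 passed (median -0.02, with -0.24 in litter 1 and 0.10 in litter 2, 0 at an unadjusted p under 0.05, *Pdgfrb* lowest at -0.16, adjusted p = 0.315), and no gene of meninges and mesenchyme of 12 (median -0.05, with -0.28 in litter 1 and 0.28 in litter 2, 1 at an unadjusted p under 0.05, *Lum* lowest at -0.26, adjusted p = 0.126). Among 12 genes of dorsal root ganglion neurons 0 passed (median -0.01, with -0.17 in litter 1 and 0.34 in litter 2, 5 at an unadjusted p under 0.05, *Pou4f3* lowest at -0.43, adjusted p = 0.0896, edgeR). Of 3 tested genes of mast cells and lymphocytes 0 passed (*Cpa3* lowest at -1.05, adjusted p = 0.470, 0 at an unadjusted p under 0.05), and the other 7 had no more than 11 counts in any embryo.

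Radial glia and glial precursors, the other neural source of *Apoe*, had a median of -0.06 over 18 genes and a median r with *Apoe* of 0.01. One gene passed the test, *Nfia*, a transcription factor of glial precursors, which fell by 0.24 (adjusted p = 0.0333, edgeR). *Slc1a3*, the glutamate transporter of radial glia, was at 162 CPM in controls and 171 CPM in Mut embryos (0.06, adjusted p = 0.554), and *Fabp7*, their lipid-binding protein, at 619 and 585 CPM (-0.08, adjusted p = 0.451).

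**Figure D5:**
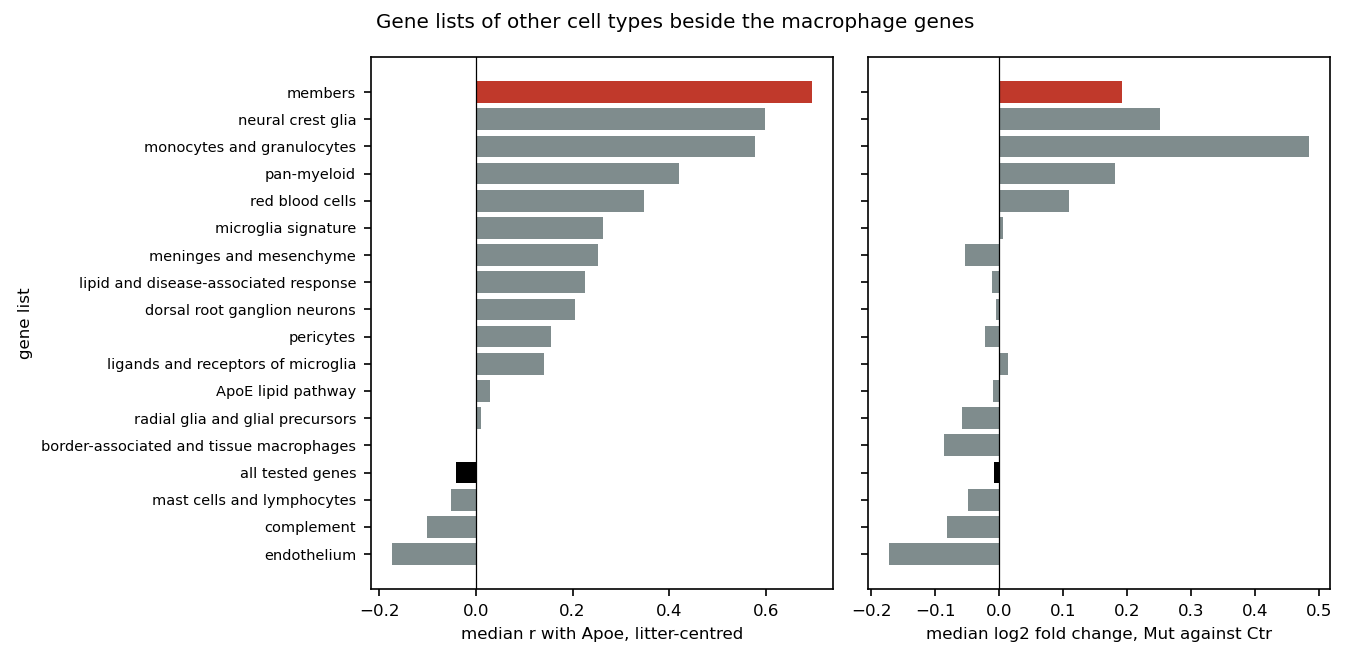
Median Pearson's r with *Apoe* across the 10 embryos, centred on the litter (left), and median log2 fold change of Mut against Ctr (right), for 16 gene lists (grey), the members (red, 9 genes on the left and 10 on the right) and all tested genes (black). The members have the highest median r with this centring (0.70), followed by neural crest glia (0.60) and monocytes and granulocytes (0.58), and the latter have the highest median log2 fold change (0.48), from genes that were mostly near the floor.

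The order of the lists changed with the centring. On litter and genotype together, the median r with *Apoe* was 0.29 for the members, 0.47 for dorsal root ganglion neurons, 0.46 for meninges and mesenchyme, 0.38 for neural crest glia, 0.31 for pericytes, 0.10 for monocytes and granulocytes and 0.09 for pan-myeloid genes.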

How the data were processed

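The authors trimmed the reads of polyA RNA libraries, aligned them to mm10 with STAR and counted them with featureCounts, and they deposited raw counts per gene without normalization. Whether the counting used strand is not given in the sources used here. Gene names came from GENCODE M21, which matched 54079 of 54146 identifiers. With R 4.3.3, edgeR 4.0.16, limma 3.58.1 and DESeq2 1.42.0, counts were filtered with the default expression filter, scaled by TMM and compared by the quasi-likelihood test of edgeR, with litter as a term and Benjamini-Hochberg adjustment at 0.05. Standard errors are the log2 fold change over the square root of F. Correlations used log2 CPM with a prior count of 2. Both tests were first tested on simulated data. The members and lists were chosen with earlier results of these data known. Named were all members, genes within 50 kb of *Apoe*, the 5 genes most like it, and from each list the genes called or the gene of lowest p; list genes named beside these were chosen after their values were seen. Some list genes that the rule names are not reported here. All 20 within-group pairs of embryos were unlike beyond counting noise (chi-square per gene 9.36 to 85.9). Alternatives were other scalings, filters, tests, covariates, single litters and leaving out each embryo. P-values measure the spread between these embryos.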

Additional observations from a re-analysis of the deposited data

Results flagged for a closer look

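*C1qb* in the embryo Mut_190-6 stood apart from the other Mut embryos. At 11.2 CPM it lay below the next embryo at 12.2 CPM, a gap of 0.725 of the range of the 5 embryos, above Dixon's 95% critical value of 0.71. Of 20 groups examined (10 genes in 2 genotypes) this was 1, and chance gives about 1 in 20.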

How the results depend on the processing

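The log2 fold change of *Apoe* was positive under all 27 alternatives and passed the threshold in 14, with adjusted p from 6.6e-17 to 0.454. It did not pass without the litter term (0.48), in litter 1 only (0.40), with *Xist* (0.37), or with the mean of the 9 macrophage genes (0.31), of neural crest glia (0.28), of red blood cells (0.43) or, chosen after seeing the data, of pan-myeloid genes (0.32). Leaving out 1 embryo gave 0.45 to 0.60, and 4 of 10 such fits passed.

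The number of members called was 2 (*Apoe* and *C1qc*) without the expression filter, with DESeq2 (its default filter in place of the expression filter), with the robust fit and in litter 2 only, and 0 without the litter term, in litter 1 only and with *Xist*. Over all genes the number called was 591, against 2201 without the filter, 1492 with DESeq2, 0 without the litter term (edgeR, 1867 at an unadjusted p under 0.05), 12 in litter 1, 964 in litter 2 and 49 with *Xist*. DESeq2 gave a p for 35244 genes in place of 19773 and then applied its own filter, so test and filter changed together. Leaving out 1 embryo gave 0 to 2 members and 53 to 1377 genes, the highest without Mut_181-7 and the lowest without Mut_190-6. The cause of these shifts was not tested.

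Changes of sign were limited to genes near 0. *Cx3cr1* was -0.073 and *Csf1r* -0.12 in litter 1 only, -0.10 and -0.14 with *Xist*, and *Aif1* was -0.010 in litter 2 only. Leaving out 1 embryo gave -0.032 to 0.095 for *Aif1*, -0.070 to 0.065 for *Cx3cr1* and -0.066 to 0.070 for *Csf1r*. The r of *Apoe* with the mean of the 9 genes was 0.40 centred on litter and genotype, and 0.86 without the 2 embryos farthest from the median. The number called between litters stayed within 1.5 times. No paired analysis was possible because each label, litter and number together, names a single embryo and links no pair across the groups.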
